A study of Homo sapiens with 18 samples.

Results

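OVCAR8 and Kuramochi are established human ovarian cancer cell lines that the study used as models of high-grade serous ovarian cancer (HGSOC). They were compared as grown on plastic, without omental cells, so the comparison is a baseline difference between 2 lines and not a treatment. It takes all genes in the 3 OVCAR8 plastic libraries, replicates 4, 61 and 62 by their labels, against the 3 Kuramochi plastic libraries, replicates 2, 4 and 8. These are 6 of the 18 libraries of the series. The other 12 are OVCAR4 on plastic, and OVCAR8, Kuramochi and OVCAR4 recovered from a 3D culture of human omental fibroblasts and mesothelial cells, with 3 libraries each. Cells of both lines carried GFP, and the plastic cultures were seeded straight onto dishes and passed through a sham sort. According to the methods, 3 independent experiments were done per line. Each group is 1 line, so the spread between its libraries is that of cultures of the line and says nothing of the spread between tumors. Values of the libraries are given below in the order of the replicate numbers above.

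HGSOC is thought to arise mainly from the secretory epithelium of the fallopian tube, and most such tumors keep transcription factors of the Müllerian duct lineage, among them PAX8, WT1 and SOX17. Cell lines differ in how much of this program, of epithelial keratins and junctions, and of mesenchymal and matrix genes they keep. Interferon-stimulated genes are a further program that can be active in cancer cells without infection. They are switched on when a factor complex that holds IRF9 binds a promoter element built of GAAA repeats, and they encode antiviral proteins.

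The OVCAR8 plastic libraries held 29988250 to 34657829 counts (median 34407534) and the Kuramochi plastic libraries 28415048 to 38359396 (median 33553066). The unit of level is CPM, a gene's counts relative to the library's total after TMM normalization. CPM does not correct for gene length, so levels were compared between lines. Sums over marker genes and rankings by CPM, given in places below, depend on gene length as well. OVCAR8 plastic replicates 4 and 62 lay close together, with a chi-square of their counts of 3.12 per degree of freedom, against 9.43 and 10.15 for the other OVCAR8 pairs and 34.6 to 114 for the Kuramochi pairs. That exceeds sampling noise, but it cannot show whether replicates 4 and 62 came from separate cultures, which the labels do not say. All libraries were kept, and an alternative given below counts replicates 4 and 62 together. P-values set the difference between the lines against the spread between libraries of a line. That spread was estimated over the 9 plastic libraries and shared in part across genes. Tests are the quasi-likelihood F-test of edgeR over 20651 genes in a fit of the 9 plastic libraries, OVCAR4 included for the spread, with Benjamini-Hochberg adjustment. Log2 fold changes are OVCAR8 over Kuramochi.

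The lines differed in most genes. Of 20651 genes tested, 13708 (66.4%) passed an adjusted p under 0.05, of which 6564 were higher and 7144 lower in OVCAR8. At least 2-fold higher were 4214 genes (20.4%), at least 2-fold lower 5003 (24.2%), and 4491 passed the test below 2-fold. Differences of 8-fold or more numbered 1361 higher and 1754 lower, and the libraries of the lines did not overlap for 14948 genes (72.4%). The counts of any gene group below are to be read against these shares. The median log2 fold change over all genes was -0.03.

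**Figure D1:**
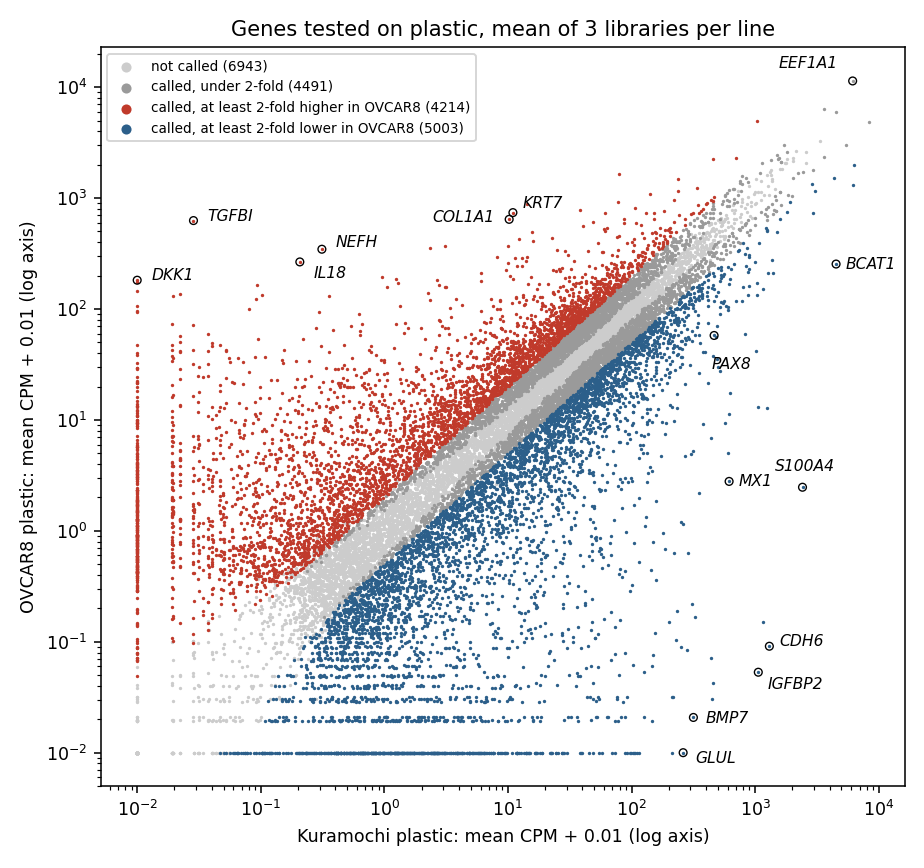
Mean CPM of each of 20651 tested genes in OVCAR8 plastic (vertical axis) and Kuramochi plastic (horizontal axis), both on log axes after adding 0.01, 1 point per gene. The 4214 genes called at least 2-fold higher and 5003 called at least 2-fold lower in OVCAR8 lie off the diagonal, and the points along the bottom and left edges are genes with 0 counts in 1 line.

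Müllerian lineage and surface genes of HGSOC were mostly lower in OVCAR8. Of 27 listed genes tested, 3 were at least 2-fold higher and 20 at least 2-fold lower, with a median log2 fold change of -7.64. PAX8, the paired box factor used to identify Müllerian tumors, was at 56.2, 62.2 and 54.7 CPM in the OVCAR8 libraries, against 464, 436 and 497 CPM in the Kuramochi libraries. It was thus present in both lines but 8.07-fold lower in OVCAR8 (log2 fold change -3.01, standard error 0.127, adjusted p = 5.90e-09). WT1, a zinc finger factor of mesothelium and serous tumors, was at 0.228, 0.129 and 0.255 CPM in OVCAR8, against 41.2, 46 and 38.8 CPM in Kuramochi (log2 fold change -7.64, standard error 0.267, adjusted p = 2.37e-09). SOX17, an HMG box partner of PAX8, had 2 counts in the 3 OVCAR8 libraries together, against 183, 262 and 209 CPM in Kuramochi, where it was 11100-fold higher (95% counting interval 3080 to 91800, adjusted p = 1.36e-09). MECOM, a zinc finger factor of the 3q26 region, had 1 count in OVCAR8, against 163, 95.3 and 121 CPM in Kuramochi. EMX2, a homeobox gene of the urogenital tract, had 0 counts in OVCAR8, against 73.4, 96.5 and 94.5 CPM in Kuramochi, at least 2960-fold lower in OVCAR8 by a floor of 3 counts over the group (adjusted p = 1.07e-08). The last 3 of these factors were at or near 0 in every OVCAR8 library and high in every Kuramochi library.

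Cell surface and secreted markers followed the same side in most cases. CDH6, a kidney and Müllerian cadherin, was at 0.0857, 0.129 and 0.0283 CPM in OVCAR8, against 1485, 1233 and 1193 CPM in Kuramochi (log2 fold change -13.94, standard error 0.298, adjusted p = 2.15e-10). WFDC2, which encodes the serum marker HE4, was at 0.685, 0.809 and 0.538 CPM in OVCAR8, against 104, 235 and 218 CPM in Kuramochi (log2 fold change -8.10, adjusted p = 2.83e-08). SLC34A2, the phosphate transporter NaPi2b, had 0 counts in OVCAR8, against 122, 109 and 104 CPM in Kuramochi, at least 3790-fold lower in OVCAR8. MUC16, which encodes CA125, also had 0 counts in OVCAR8 but averaged only 0.599 ± 0.29 CPM (SD, n = 3) in Kuramochi. MSLN (mesothelin) passed the test below 2-fold, with 122, 129 and 109.5 CPM in OVCAR8, against 175, 259.9 and 160.3 CPM in Kuramochi. The kallikrein genes KLK5, KLK6, KLK7 and KLK8, neighbors on chromosome 19, had 1, 0, 0 and 0 counts in OVCAR8, against means of 18.4, 11.8, 5.89 and 12.6 CPM in Kuramochi. Among the 3 genes on the other side were the hormone receptor PGR and the folate receptor FOLR1. PGR averaged 4.4 ± 0.426 CPM in OVCAR8 (SD, n = 3), against 1 count in Kuramochi, 438-fold higher (95% counting interval 78.2 to 17300). FOLR1 averaged 2.99 ± 0.651 CPM in OVCAR8 and 1 ± 0.304 CPM in Kuramochi (SD, n = 3 each). ESR1, the estrogen receptor, had 2 counts in OVCAR8 and 4 in Kuramochi, so no difference was detectable.

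Both lines expressed the simple epithelial keratins KRT8 and KRT18, and the contrast lay in KRT7 and KRT19. KRT8 was at 1701, 1736 and 1670 CPM in OVCAR8, against 1949, 3119 and 2232 CPM in Kuramochi, and neither it nor its partner KRT18 reached a 2-fold difference (log2 fold changes -0.52 and -0.64). KRT7 was at 804, 643 and 771 CPM in OVCAR8, against 8.53, 14.6 and 9.71 CPM in Kuramochi, 67.3-fold higher in OVCAR8 (log2 fold change 6.07, standard error 0.287, adjusted p = 1.40e-08). KRT19 had 0 counts in OVCAR8, against 5.91, 23.2 and 21.7 CPM in Kuramochi, at least 564-fold lower in OVCAR8, and KRT23 also had 0 counts there, against a mean of 8.24 CPM in Kuramochi. Of 19 keratins tested, 3 were at least 2-fold higher and 8 lower. The other 2 that were higher, KRT14 and KRT15, averaged under 1 CPM in both lines, and the count of 3 became 1 without Kuramochi replicate 2 or 8.

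Junction genes split between the lines. Of 48 epithelial adhesion and polarity genes tested, 13 were at least 2-fold higher in OVCAR8 and 19 lower, with a median log2 fold change of -0.91. CDH1 (E-cadherin) was near 0 in both lines, at 0.714, 1.42 and 1.08 CPM in OVCAR8, against 0.0856, 0.163 and 0.83 CPM in Kuramochi. It was called higher in OVCAR8 with all libraries (log2 fold change 1.68, adjusted p = 0.0189), but the adjusted p was 0.059 without Kuramochi replicate 2, 0.0724 without Kuramochi replicate 4 and 0.067 without OVCAR8 replicate 61, and the log2 fold change was 3.05 without Kuramochi replicate 8. EPCAM was at 15, 17.8 and 15.2 CPM in OVCAR8, against 2.65, 3.04 and 5.52 CPM in Kuramochi (log2 fold change 2.11, adjusted p = 9.14e-06). The desmosomal genes PKP3 and DSG2 were on the OVCAR8 side, PKP3 at 32.2, 34.9 and 28 CPM in OVCAR8 against 3 counts in all 3 Kuramochi libraries, and DSG2 at 129, 129.6 and 128 CPM in OVCAR8, against 25.4, 13.1 and 15.7 CPM in Kuramochi. The tight junction genes CLDN3 and CLDN4 and periplakin (PPL) were on the other, with log2 fold changes of -3.70, -5.98 and -6.29. CLDN4 averaged 0.599 ± 0.0714 CPM in OVCAR8 and 38.3 ± 12.3 CPM in Kuramochi (SD, n = 3 each). The lines thus differed in which members of the epithelial program they expressed.

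**Figure D2:**
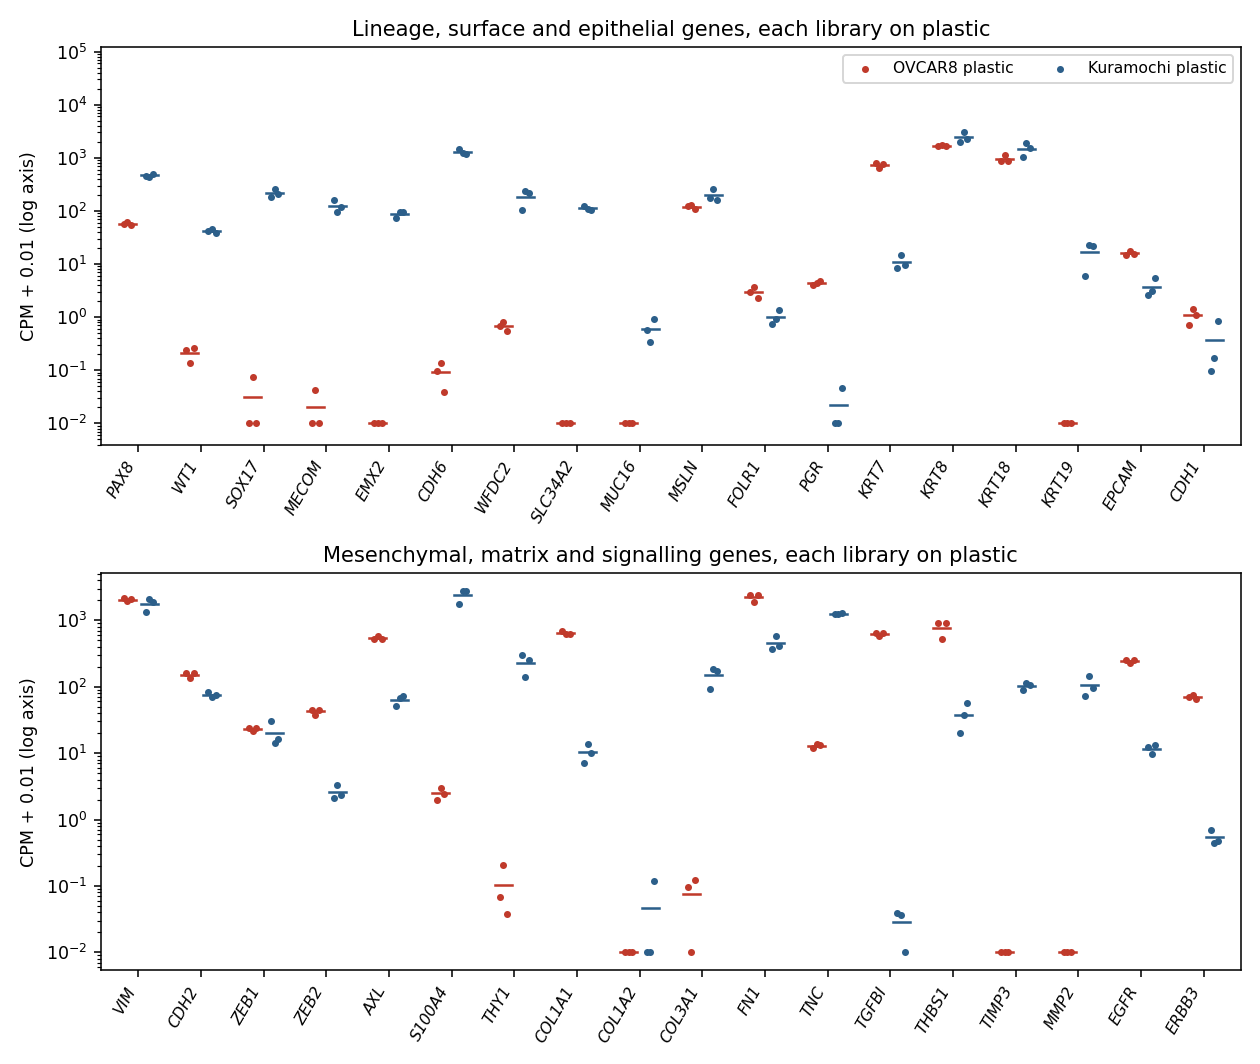
CPM of named genes in each OVCAR8 plastic library (left of each pair) and each Kuramochi plastic library (right), on a log axis after adding 0.01, with points for libraries and bars for the mean of 3. PAX8, CDH6, S100A4 and TNC sat higher in every Kuramochi library, and KRT7, COL1A1, TGFBI, EGFR and ERBB3 higher in every OVCAR8 library.

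Mesenchymal genes did not fall on 1 side either. Of 25 listed genes, 5 were at least 2-fold higher in OVCAR8 and 11 lower (median log2 fold change -0.09). The intermediate filament VIM was at 2160, 1943 and 2070 CPM in OVCAR8, against 1334, 2072 and 1903 CPM in Kuramochi, and did not pass the test. Nor did the EMT factors ZEB1, SNAI2 and TWIST1, with log2 fold changes of 0.18, 0.59 and -0.09. ZEB2, a repressor of CDH1, was at 44.3, 37.4 and 45.4 CPM in OVCAR8, against 2.11, 3.25 and 2.35 CPM in Kuramochi (log2 fold change 4.04, standard error 0.216, adjusted p = 2.02e-07). AXL, a receptor kinase of mesenchymal cells, was at 524, 572 and 523 CPM in OVCAR8, against 51.7, 67.3 and 72.3 CPM in Kuramochi (log2 fold change 3.08, adjusted p = 2.30e-08). S100A4, a calcium-binding protein tied to cell motility, showed the reverse, with 1.97, 3.01 and 2.41 CPM in OVCAR8, against 1789, 2743 and 2721 CPM in Kuramochi, 984-fold lower in OVCAR8 (log2 fold change -9.94, standard error 0.385, adjusted p = 3.72e-09). The smooth muscle actin ACTA2 averaged 1.09 ± 0.216 CPM in OVCAR8 and 128 ± 87.9 CPM in Kuramochi (SD, n = 3 each). THY1, a surface protein of fibroblasts and stem cells, was at 0.0571, 0.194 and 0.0283 CPM in OVCAR8, against 299, 140.4 and 249 CPM in Kuramochi.

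Developmental factors differed by cluster. Of 8 HOXC genes tested, 6 were at least 2-fold higher in OVCAR8, whereas of 7 HOXD genes 1 was higher and 5 lower. HOXC10 was at 20.4, 20.2 and 20.9 CPM in OVCAR8, against 0.0285, 0.0813 and 0 CPM in Kuramochi. HOXD4 was at 2.4, 2.1 and 2.52 CPM in OVCAR8, against 31, 21.2 and 19.4 CPM in Kuramochi (log2 fold change -3.35, adjusted p = 4.10e-07). The HOXD gene on the other side was HOXD13, the last of the cluster, at 6.31 CPM on average in OVCAR8, against 0.249 CPM in Kuramochi. Of 10 HOXA genes 5 were higher and 4 lower, and of 9 HOXB genes 4 and 2.

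HOX cofactors and other developmental factors were more often lower in OVCAR8, 29 of 60 against 15 higher. The HOX cofactor MEIS1 averaged 2.75 ± 0.439 CPM in OVCAR8 and 84.3 ± 10.6 CPM in Kuramochi (SD, n = 3 each). The cardiac and gonadal factor GATA4 had 0 counts in OVCAR8, against 3.88, 8.59 and 5.52 CPM in Kuramochi. LIN28B, an RNA-binding repressor of let-7 miRNAs, had 5 counts in OVCAR8, against 26.9, 12.7 and 23.1 CPM in Kuramochi. On the OVCAR8 side were TBX18, a T-box factor of the epicardium, at 41.8, 41 and 41.4 CPM against 1 count in Kuramochi, the hindlimb factor PITX1 with a mean of 36.2 CPM, against 0.542 CPM in Kuramochi, and the nuclear receptor NR2F2 with 245 CPM, against 45.1 CPM in Kuramochi.

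Interferon-stimulated genes were lower in OVCAR8 almost as a group. Of 54 listed genes tested, 3 were at least 2-fold higher and 44 at least 2-fold lower (81.5%, against 24.2% of all genes), with a median log2 fold change of -2.84. ISG15, a ubiquitin-like modifier, was at 32, 19.6 and 30.8 CPM in OVCAR8, against 148, 762 and 655 CPM in Kuramochi (log2 fold change -4.25, standard error 0.506, adjusted p = 1.80e-05). IFI6, a survival protein of the interferon response, was at 13.7, 15.5 and 9.8 CPM in OVCAR8, against 408, 1505 and 1261 CPM in Kuramochi (log2 fold change -6.35, standard error 0.455, adjusted p = 2.98e-07). MX1, an antiviral GTPase, was at 2.51, 3.14 and 2.69 CPM in OVCAR8, against 171, 705 and 972 CPM in Kuramochi (log2 fold change -7.79, standard error 0.597, adjusted p = 5.15e-07). In all 3 genes Kuramochi replicate 2 was the lowest Kuramochi library and still stood above every OVCAR8 library. Without that replicate ISG15 had a log2 fold change of -4.69 and MX1 of -8.24.

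The other genes of the list covered membrane proteins, sensors and a factor that drives them. IFI27 and IFITM1 averaged 4.99 ± 0.409 and 4.75 ± 0.362 CPM in OVCAR8, against 605 ± 230.2 and 269.9 ± 116 CPM in Kuramochi (SD, n = 3 each). IFI44L was at 0.0285, 0.194 and 0 CPM in OVCAR8, against 107, 305 and 436 CPM in Kuramochi. The synthetase OAS1, which makes the activator of RNase L, had 2 counts in OVCAR8, against 7.79, 58.5 and 64.3 CPM in Kuramochi, and the guanylate-binding GTPase GBP2 averaged 0.569 CPM in OVCAR8, against 59.1 CPM in Kuramochi. IRF9, part of the complex that drives these genes, had a log2 fold change of -2.83 (standard error 0.235). The 3 exceptions were MX2, a nuclear pore GTPase, TRIM14, an adaptor of RNA sensing, and BATF2. MX2 was at 55.2, 61.9 and 57.3 CPM in OVCAR8, against 1.03, 2.36 and 4.95 CPM in Kuramochi, and TRIM14 at 38.3, 34.4 and 33.5 CPM in OVCAR8, against 4.34, 8.13 and 6.86 CPM in Kuramochi. DDX60L did not pass the test (log2 fold change 0.24).

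Promoter sequence of these genes was read from RefSeq windows on GRCh38.p14, of which 35116 for 27305 genes were given, and 44 of the 54 members had a window. The letters GAAA, then NN (any bases), then GAAA, the core of the interferon-stimulated response element, were searched on both strands in the 250 bases before the start. They were found in 27 of 44 members and in 24 of the 37 that were called lower in OVCAR8. Of 11756 tested protein-coding genes with a window 3.39% held them, and of all windows 3.02%. MX1, OAS1 and RSAD2 were lower in OVCAR8 without such letters in their window. A match is a description of the sequence and not a measured binding site. Interferon-stimulated genes are switched on through this element, so its excess over all genes describes the list and not the difference between the lines. The share with a match among members called lower was close to that among all 44. The 170 bases before the start are shown 5′ to 3′ for 3 members that carry the element, with the matches in capitals. ISG15 lies on the plus strand (chr1:1013327-1013496, 2 overlapping matches), IFI6 on the minus strand (chr1:27672193-27672362, 3 matches) and IFI44L on the plus strand (chr1:78620278-78620447, 2 matches in a repeated stretch).
ISG15: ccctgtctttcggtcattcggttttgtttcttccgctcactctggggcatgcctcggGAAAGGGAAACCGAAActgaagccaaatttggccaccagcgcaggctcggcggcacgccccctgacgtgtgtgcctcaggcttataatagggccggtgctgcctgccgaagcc
IFI6: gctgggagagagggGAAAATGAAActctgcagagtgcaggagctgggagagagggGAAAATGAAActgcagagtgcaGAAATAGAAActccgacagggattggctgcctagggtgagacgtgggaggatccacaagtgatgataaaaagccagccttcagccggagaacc
IFI44L: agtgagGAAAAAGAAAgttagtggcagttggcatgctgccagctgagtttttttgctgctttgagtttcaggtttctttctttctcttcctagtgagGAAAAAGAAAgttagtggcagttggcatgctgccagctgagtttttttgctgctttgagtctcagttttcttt

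Genes of antigen presentation differed in both directions. B2M, the shared light chain of MHC class I, was at 16.1, 18.2 and 18.2 CPM in OVCAR8, against 368, 709.9 and 808 CPM in Kuramochi, 35.9-fold lower in OVCAR8 (log2 fold change -5.16, standard error 0.284, adjusted p = 4.22e-08). The heavy chain HLA-B passed below 2-fold (log2 fold change 0.92). HLA genes are polymorphic, so part of their reads may align elsewhere, and their levels are uncertain. Of 30 genes of MHC class I and II presentation, 9 were at least 2-fold higher and 4 lower. The class II chains HLA-DRB1 and HLA-DQB1 averaged 12 ± 1.1 and 8.85 ± 1.07 CPM (SD, n = 3) in OVCAR8 and had 0 counts in Kuramochi, and the invariant chain CD74 averaged 2.72 CPM in OVCAR8, against 0.418 CPM in Kuramochi. The class II protease CTSS had 3 counts in OVCAR8, against a mean of 5.7 CPM in Kuramochi.

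**Figure D3:**
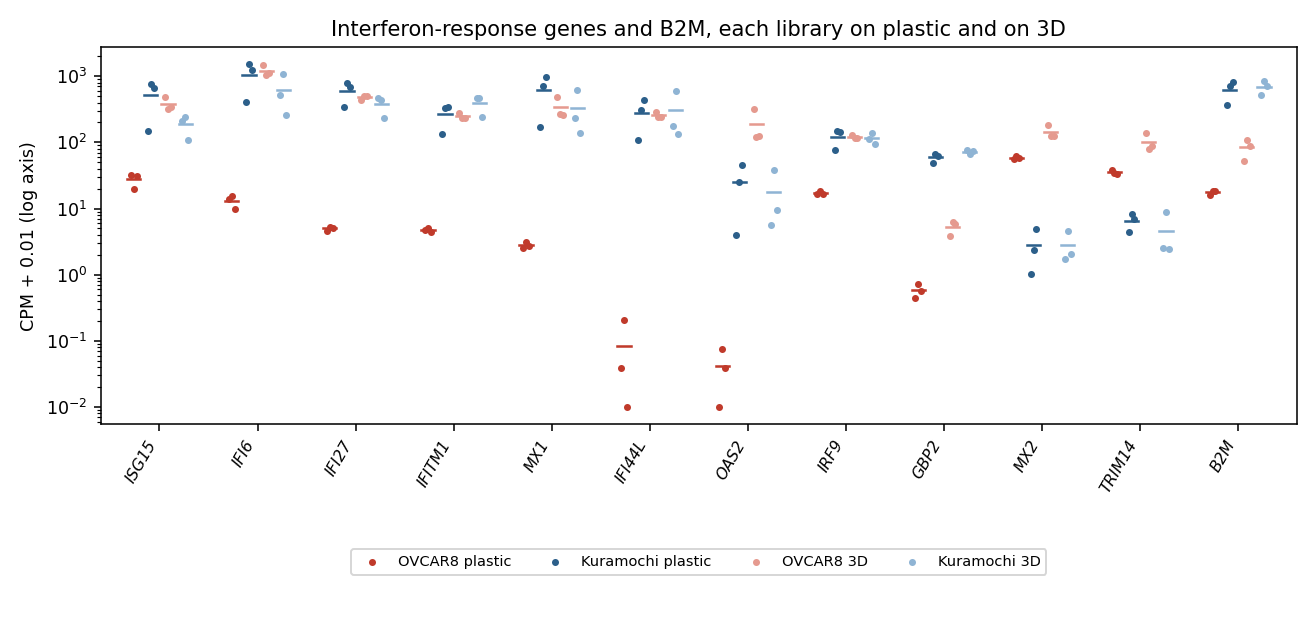
CPM of interferon-response genes and B2M in each library of OVCAR8 plastic, Kuramochi plastic, OVCAR8 3D and Kuramochi 3D (left to right for each gene), on a log axis after adding 0.01, with points for libraries and bars for the mean of 3. On plastic ISG15 was at 32, 19.6 and 30.8 CPM in OVCAR8, against 148, 762 and 655 CPM in Kuramochi, while on 3D the lines overlap for several of these genes.

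Cytokine genes included several that were read in 1 line alone. Of 30 tested, 7 were at least 2-fold higher in OVCAR8 and 12 lower. IL18, a cytokine of epithelia that is activated by inflammasomes, was at 253, 267 and 277 CPM in OVCAR8, against 0.0856, 0.108 and 0.397 CPM in Kuramochi. IL11 and IL6, which signal through gp130, averaged 14 ± 5.07 and 6.65 ± 2.82 CPM in OVCAR8, against 0.938 ± 0.156 and 1.08 ± 0.555 CPM in Kuramochi (SD, n = 3 each). CCL2, a monocyte attractant, and IL33, an alarmin, had 0 counts in OVCAR8, against 26.1, 44.4 and 44.2 CPM and 17.6, 21.8 and 27.3 CPM in Kuramochi, at least 1280-fold and 737-fold lower in OVCAR8. CXCL12, the ligand of CXCR4, also had 0 counts in OVCAR8, against 11.6, 6.53 and 25.9 CPM in Kuramochi.

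More complement and NF-kB genes were lower than higher in OVCAR8. Of 20 complement genes, 3 were at least 2-fold higher in OVCAR8 and 13 lower. Clusterin (CLU) was at 21.3, 24 and 19.8 CPM in OVCAR8, against 380.2, 499.7 and 368 CPM in Kuramochi (log2 fold change -4.26, adjusted p = 7.47e-09), and the protease inhibitor SERPING1 averaged 2.51 CPM in OVCAR8, against 77.8 CPM in Kuramochi. The membrane regulators went opposite ways. CD55 was at 20.8, 16.5 and 22 CPM in OVCAR8, against 0, 0.136 and 0.397 CPM in Kuramochi, and CD46 at 56.2, 61.3 and 58.4 CPM in OVCAR8, against 270.2, 175 and 221 CPM in Kuramochi. Of 28 genes of the TNF and NF-kB response 5 were at least 2-fold higher and 11 lower, and the first of these counts was 3 without Kuramochi replicate 2. The NF-kB subunit RELB (log2 fold change -3.76) and the TNF-induced gene TNFAIP2 (-3.85) were among those lower.

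Each line made its own set of matrix genes. Of 35 collagen chains tested 11 were at least 2-fold higher in OVCAR8 and 16 lower, and of 54 matrix glycoproteins 18 and 24. COL1A1, the α1 chain of collagen I (chr17:50184101-50201632), was at 681, 630.2 and 618 CPM in OVCAR8, against 7.02, 13.6 and 10 CPM in Kuramochi, 62.9-fold higher in OVCAR8 (log2 fold change 5.97, standard error 0.234, adjusted p = 3.81e-09). COL1A2, which encodes the partner chain of the same fiber, had 0 counts in OVCAR8 and 3 counts in Kuramochi. OVCAR8 thus had RNA of 1 chain of collagen I and none detected of the other. COL3A1, the fibrillar collagen of soft tissue, was at 0.0857, 0 and 0.113 CPM in OVCAR8, against 91.9, 186 and 173 CPM in Kuramochi. COL5A1 averaged 0.0975 ± 0.0405 CPM in OVCAR8 and 50.8 ± 11.1 CPM in Kuramochi (SD, n = 3 each), and COL12A1, a fibril-associated collagen, 609.7 ± 73.7 CPM in OVCAR8 and 49.1 ± 6.26 CPM in Kuramochi (SD, n = 3 each, adjusted p = 2.70e-06). The basement membrane chain COL4A1 did not pass the test (log2 fold change 0.14).

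Among the glycoproteins the largest contrast on the OVCAR8 side was TGFBI, an integrin ligand induced by TGF-β. It was at 654, 580.4 and 646 CPM in OVCAR8 and had 2 counts in the 3 Kuramochi libraries together, which makes it 31300-fold higher (adjusted p = 4.83e-10) with a 95% counting interval of 8670 to 259000. Fibronectin (FN1) was at 2392, 1917 and 2387 CPM in OVCAR8, against 372, 589 and 404 CPM in Kuramochi (log2 fold change 2.29, standard error 0.368, adjusted p = 1.79e-04). Thrombospondin 1 (THBS1) was at 899.5, 519.8 and 901 CPM in OVCAR8, against 20, 37.7 and 56.2 CPM in Kuramochi (log2 fold change 4.35, adjusted p = 2.53e-05). Tenascin C (TNC), a glycoprotein of tumor stroma, showed the reverse, with 12, 13.6 and 13.2 CPM in OVCAR8, against 1246, 1225 and 1275 CPM in Kuramochi, 96.8-fold lower in OVCAR8 (log2 fold change -6.60, standard error 0.257, adjusted p = 3.75e-09). Of the insulin-like growth factor binding proteins, 3 were nearly silent in OVCAR8. IGFBP2 had 4 counts, IGFBP5 0 and IGFBP7 2 in the 3 OVCAR8 libraries, against 844, 1449 and 890.3 CPM, 125, 71.9 and 77.2 CPM and 286, 664 and 398 CPM in Kuramochi.

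Proteases and their inhibitors were split as well, 15 of 41 at least 2-fold higher in OVCAR8 and 13 lower. The gelatinase MMP2 and the inhibitor TIMP3 each had 0 counts in OVCAR8, against 72.7, 146 and 95 CPM and 88.1, 114 and 108 CPM in Kuramochi, at least 3570-fold and 3480-fold lower in OVCAR8. The plasminogen activator PLAU did not pass the test (log2 fold change -0.10), while its receptor PLAUR was higher in OVCAR8 (2.51). The collagen crosslinker LOXL2 averaged 188 ± 1.08 CPM in OVCAR8 and 11.1 ± 2.55 CPM in Kuramochi, and LOXL1 13.5 ± 2.02 CPM in OVCAR8 and 204 ± 51.3 CPM in Kuramochi (SD, n = 3 each).

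Proteoglycans and integrins differed in both directions as well. The hyaluronan receptor CD44 averaged 392 ± 23.4 CPM in OVCAR8 and 53.1 ± 20.1 CPM in Kuramochi, biglycan (BGN) 26.6 ± 4.99 CPM in OVCAR8 and 0.679 ± 0.21 CPM in Kuramochi, and perlecan (HSPG2) 116 ± 17.7 CPM in OVCAR8 and 534 ± 248 CPM in Kuramochi (SD, n = 3 each). The intracellular proteoglycan serglycin (SRGN) was at 43, 34.5 and 45.8 CPM in OVCAR8, against 1 count in Kuramochi. Of 22 integrins 6 were at least 2-fold higher and 8 lower. The leukocyte integrin ITGB2 and the VCAM1 receptor chain ITGA4 had log2 fold changes of 6.00 and 3.77, and the RGD-binding chains ITGAV and ITGB5 of -1.32 and -2.41. The fibronectin receptor chain ITGA5 stayed below 2-fold (0.75).

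Growth factor receptors marked each line with different kinases. Of 45 receptor tyrosine kinases tested 15 were at least 2-fold higher in OVCAR8 and 19 lower. EGFR was at 253, 231 and 253 CPM in OVCAR8, against 12.3, 9.7 and 13.1 CPM in Kuramochi, 21-fold higher (log2 fold change 4.39, standard error 0.224, adjusted p = 2.48e-08). ERBB3, its partner without strong kinase activity, was at 69.5, 76.1 and 66.1 CPM in OVCAR8, against 0.685, 0.433 and 0.469 CPM in Kuramochi (log2 fold change 7.04, adjusted p = 2.02e-09). ERBB4 had 2 counts in OVCAR8, against 74, 34.1 and 38.5 CPM in Kuramochi, and ERBB2 stayed below 2-fold (log2 fold change -0.59). Of the 4 receptors of this family, 2 were thus far higher in OVCAR8, 1 far lower, and 1 was close. FGFR2 had 1 count in OVCAR8, against 23.2, 30.6 and 31.3 CPM in Kuramochi, while FGFR1, MET and IGF1R had log2 fold changes of 0.70, -0.35 and -0.73.

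Ligands of these receptors differed too, 13 of 33 at least 2-fold higher and 15 lower. Neuregulin 1 (NRG1), the ligand of ERBB3 and ERBB4, averaged 76.8 ± 7.07 CPM in OVCAR8 and 7.13 ± 0.702 CPM in Kuramochi (SD, n = 3 each). GAS6, the ligand of AXL, averaged 226 ± 11.2 CPM in OVCAR8 and 9.62 ± 4.32 CPM in Kuramochi, and FGF2 69.9 ± 21.2 CPM in OVCAR8 and 2.93 ± 0.886 CPM in Kuramochi. IGF2, a fetal growth factor, was at 0.143, 0.485 and 0.198 CPM in OVCAR8, against 70, 135 and 86.8 CPM in Kuramochi, and FGF18 had a log2 fold change of -5.86.

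Of 31 genes of the RAS and PI3K pathways downstream of these receptors, 8 were at least 2-fold higher and 7 lower. That is near the shares of all genes, 20.4% and 24.2%, so only single genes are described. The kinase AKT2 was at 105, 103 and 101 CPM in OVCAR8, against 321, 272 and 266 CPM in Kuramochi (log2 fold change -1.48, adjusted p = 7.26e-07). INPP4B, a phosphatase that limits PI3K signaling, had a log2 fold change of 7.06, and the AP-1 subunit FOSL1 of 4.25. The ERK feedback genes DUSP6 and SPRY4 were lower in OVCAR8 (-1.51 and -1.32), and NF1 did not reach 2-fold (0.27).

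More genes were lower than higher in OVCAR8 in the lists of TGF-β, activin and BMP, of Wnt, and of Notch and Hedgehog, and more were higher than lower in the YAP and TAZ list. BMP7 had 1 count in OVCAR8, against 284, 366 and 300 CPM in Kuramochi, 32300-fold higher in Kuramochi (95% counting interval 5790 to 1280000, adjusted p = 4.83e-10). The ID genes, direct targets of BMP signaling, were all lower in OVCAR8, with log2 fold changes of -3.12, -7.05, -3.73 and -8.35 for ID1 to ID4, and so was the feedback inhibitor SMAD6 (-4.51). ID1 was at 68.4, 37.2 and 61.4 CPM in OVCAR8, against 449, 615 and 387 CPM in Kuramochi. The activin chain INHBA went the other way, at 6.65, 7.38 and 7.62 CPM in OVCAR8, against 2 counts in Kuramochi. Over all 48 genes of TGF-β, activin and BMP 12 were at least 2-fold higher and 17 lower.

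Of 44 Wnt genes 8 were at least 2-fold higher in OVCAR8 and 22 lower. LGR5, the R-spondin receptor of intestinal stem cells, was at 0.0857, 0.097 and 0.0566 CPM in OVCAR8, against 378, 148 and 234 CPM in Kuramochi, and its relative LGR6 had 1 count in OVCAR8, against a mean of 146 CPM in Kuramochi. WNT7A, a ligand of the Müllerian duct, had 0 counts in OVCAR8, against 70.4, 52.7 and 51.3 CPM in Kuramochi. AXIN2, a target of β-catenin, averaged 1.89 ± 0.378 CPM in OVCAR8 and 8.8 ± 2.25 CPM in Kuramochi (SD, n = 3 each). DKK1, a secreted Wnt inhibitor, was on the other side. It was at 180.2, 182 and 183 CPM in OVCAR8 and had 0 counts in Kuramochi, which puts it at least 6040-fold above (adjusted p = 1.13e-08).

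Of 26 Notch and Hedgehog genes 4 were at least 2-fold higher and 13 lower. JAG1, NOTCH3 and their target HES1, a ligand, a receptor and a repressor, were all lower in OVCAR8, with log2 fold changes of -5.35, -4.37 and -3.13. JAG1 was at 3.54, 2.72 and 3.62 CPM in OVCAR8, against 156, 113 and 135 CPM in Kuramochi. The Hedgehog coreceptor BOC averaged 0.618 ± 0.11 CPM in OVCAR8 and 286 ± 111 CPM in Kuramochi (SD, n = 3 each).

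Of 29 genes listed as YAP and TAZ targets or factors 12 were at least 2-fold higher in OVCAR8 (41.4%) and 6 lower. The tissue factor gene F3 was at 852, 950 and 873 CPM in OVCAR8, against 7.88, 13.2 and 21.3 CPM in Kuramochi (log2 fold change 5.98, standard error 0.419, adjusted p = 2.49e-07). ANKRD1, CCN1 and MYOF had log2 fold changes of 2.27, 2.28 and 3.15. The target CCN2 went the other way, at 137.3, 117.6 and 137.9 CPM in OVCAR8, against 478.7, 396.8 and 241 CPM in Kuramochi. Its log2 fold change was -1.51 (adjusted p = 0.00609), and the adjusted p was 0.0645 without a filter on low counts. YAP1 did not pass at 2-fold (0.23) and its paralog WWTR1, which encodes TAZ, was lower in OVCAR8 (-2.26), with 19.3, 17.1 and 20.2 CPM in OVCAR8, against 88.5, 86.7 and 96.1 CPM in Kuramochi.

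**Figure D4:**
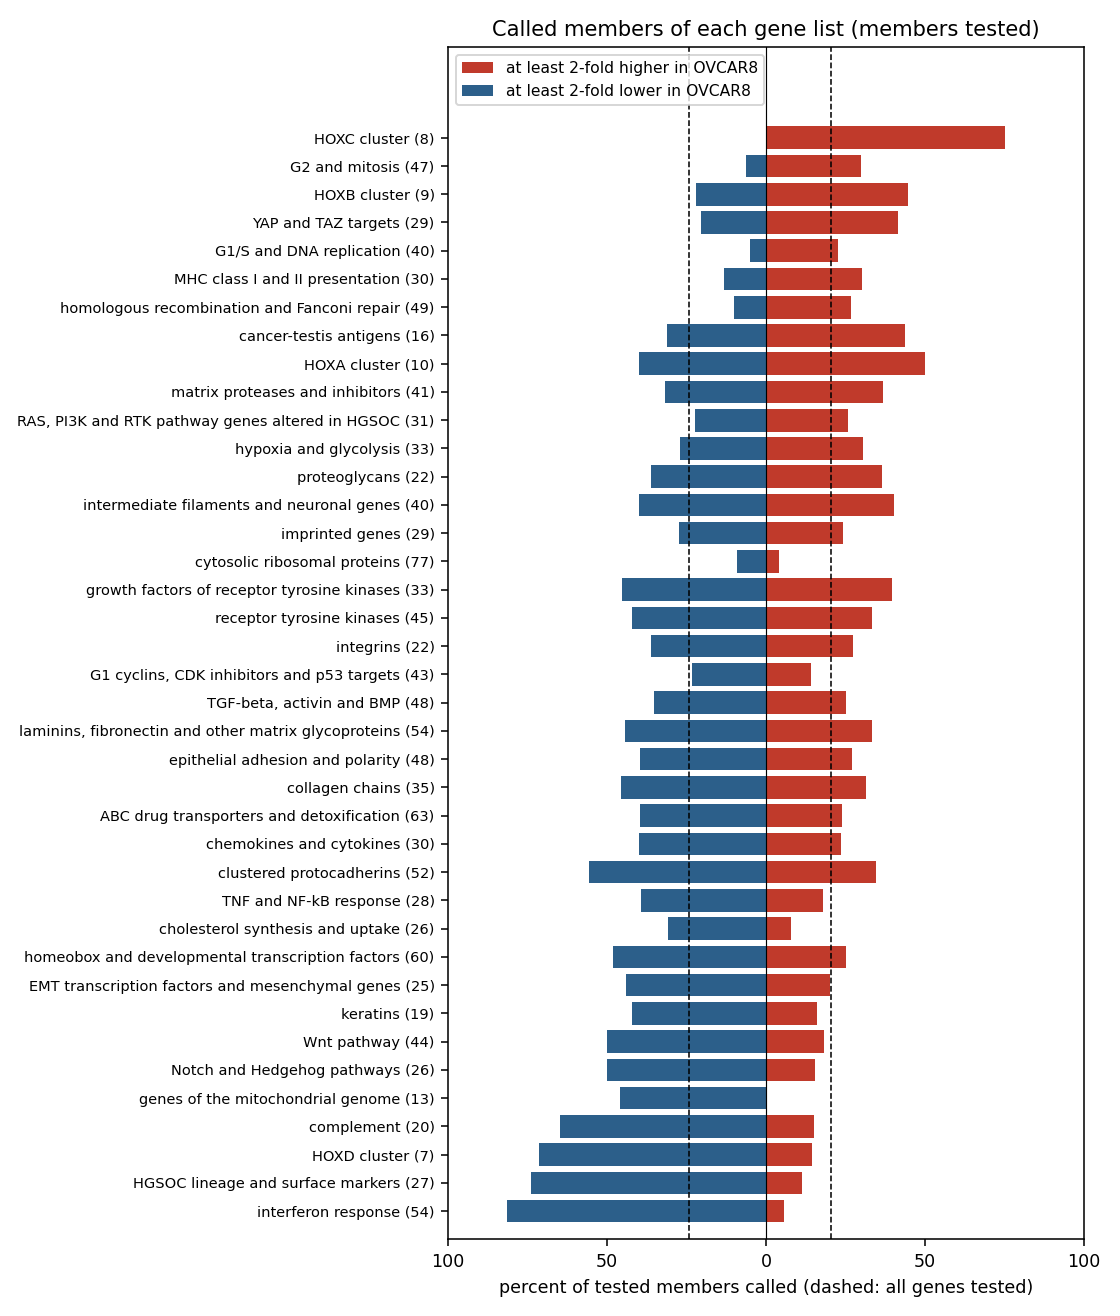
Percent of the tested members of each gene list called at least 2-fold higher (right) or at least 2-fold lower (left) in OVCAR8, with the number tested in parentheses and dashed lines at the shares over all genes (20.4% higher, 24.2% lower). The interferon response and the HGSOC lineage genes have the largest shares lower, and the HOXC cluster the largest share higher.

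More cell cycle genes passed the test below 2-fold than at 2-fold or more. Of 40 genes of G1/S and DNA replication 9 were at least 2-fold higher in OVCAR8, 2 lower and 21 passed below 2-fold, with a median log2 fold change of 0.66. For 47 genes of G2 and mitosis the counts were 14, 3 and 20 and the median 0.55. Without Kuramochi replicate 4 the G1/S genes higher at 2-fold became 14 and the mitotic genes lower 1. UHRF1, a reader of hemimethylated DNA, was at 261, 251 and 267 CPM in OVCAR8, against 72.4, 70.6 and 61 CPM in Kuramochi, and cyclin B1 (CCNB1) at 404, 419.8 and 410.1 CPM in OVCAR8, against 149.7, 136 and 159 CPM in Kuramochi. CENPF went the other way (log2 fold change -1.51). RB1 averaged 10.9 ± 1.47 CPM in OVCAR8 and 63.2 ± 9.75 CPM in Kuramochi, and cyclin D1 (CCND1) 528 ± 16.1 CPM in OVCAR8 and 202 ± 20.3 CPM in Kuramochi (SD, n = 3 each). MYC and CCNE1, which are often amplified in HGSOC, had log2 fold changes of -0.22 and -0.80, and MYCN had 0 counts in OVCAR8, against 1.83, 3.47 and 2.63 CPM in Kuramochi.

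Of 49 repair genes, 13 were at least 2-fold higher and 5 lower. BRCA1 was at 16.6, 17.2 and 18 CPM in OVCAR8, against 48, 34.9 and 36.1 CPM in Kuramochi (log2 fold change -1.20, standard error 0.169, adjusted p = 6.45e-05). RAD51D and FANCA were higher in OVCAR8, with log2 fold changes of 2.23 and 1.55. The largest contrast of this list was SLFN11, a nuclease-like gene tied to sensitivity to DNA-damaging drugs, at 34.6, 29.6 and 39.7 CPM in OVCAR8, against 1.43, 0.677 and 0.83 CPM in Kuramochi (log2 fold change 5.14, standard error 0.295, adjusted p = 5.67e-08).

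Drug transport, detoxification and metabolism genes were split. Of 63 transporters and detoxification genes 15 were at least 2-fold higher in OVCAR8 and 25 lower. The efflux pump ABCB1 was at 2.57, 3.79 and 2.86 CPM in OVCAR8 and had 0 counts in Kuramochi, at least 101-fold higher. ABCC3, another pump, averaged 0.197 ± 0.0277 CPM in OVCAR8 and 17 ± 1.54 CPM in Kuramochi (SD, n = 3 each). The metallothionein MT1E was higher in OVCAR8 (log2 fold change 4.46), and the hydroxylase CYP1B1 and the aldo-keto reductase AKR1C3 were lower (-4.66 and -3.90). Glucose transporters differed by paralog, with SLC2A1 (GLUT1) at 111, 78 and 104 CPM in OVCAR8, against 502, 649 and 666 CPM in Kuramochi, and SLC2A3 (GLUT3) at 16.4, 15.1 and 16.4 CPM in OVCAR8, against 1 count in Kuramochi. The lactate exporter SLC16A3 averaged 120.5 ± 7.33 CPM in OVCAR8 and 2.35 ± 0.972 CPM in Kuramochi (SD, n = 3 each). Among 26 cholesterol genes 2 were higher and 8 lower, among them SC5D, a late enzyme of the pathway, at 0.542, 1.07 and 0.679 CPM in OVCAR8, against 94.2, 86.5 and 133 CPM in Kuramochi. Without Kuramochi replicate 8 the genes higher became 4.

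Some of the largest differences in CPM lay in abundant housekeeping genes. Of 77 cytosolic ribosomal protein genes 3 were at least 2-fold higher and 7 lower, with RPS20 at 273, 271 and 281 CPM in OVCAR8, against 1025, 1646 and 1410 CPM in Kuramochi, and the first of these counts lay between 1 and 11 without single Kuramochi libraries. These genes have processed pseudogenes that can share their reads, as have EEF1A1 and GAPDH, which averaged 11370 ± 534 and 6364 ± 222 CPM in OVCAR8, against 6155 ± 303 and 3624 ± 724 CPM in Kuramochi (SD, n = 3 each). The heat shock protein HSP90AA1 was at 4943, 4569 and 5306 CPM in OVCAR8, against 907, 998 and 1215 CPM in Kuramochi. Of 13 protein-coding genes of the mitochondrial genome 6 were at least 2-fold lower in OVCAR8 (median log2 fold change -0.94), with MT-CO2 at 1985, 2052 and 1889 CPM in OVCAR8, against 5315, 6721 and 6749 CPM in Kuramochi. Nuclear copies of mitochondrial genes can share these reads.

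Germline genes that are silent in most adult tissues, and imprinted genes, included several read in 1 line only. The meiotic gene SYCP1 was at 23.1, 19.5 and 25.2 CPM in OVCAR8 and had 0 counts in Kuramochi, at least 756-fold higher, and XAGE1A, which shares its reads with the near-identical XAGE1B, was at 29.3, 29.4 and 28 CPM in OVCAR8 and 0 in Kuramochi. MAGEA3 showed the reverse, with 0 counts in OVCAR8, against 34.3, 11.3 and 20 CPM in Kuramochi, and shares sequence with MAGEA6. Of 48 listed antigens of this kind 16 were tested. Of these 7 were higher and 5 lower, against 20.4% and 24.2% of all genes. The count filter keeps only genes read in at least 1 plastic group, which favors differences among members that are silent in most tissues. The counts are thus no result about the list. Of 29 imprinted genes 7 were higher and 8 lower, near the shares of all genes. NDN and MAGEL2, neighbors in the Prader-Willi region, were at 46.2, 48.3 and 46.4 CPM and 3.97, 4.92 and 3.51 CPM in OVCAR8, against 0 and 1 counts in Kuramochi. GRB10 averaged 3.42 ± 0.228 CPM in OVCAR8 and 146 ± 29.7 CPM in Kuramochi (SD, n = 3 each).

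Neuronal genes and protocadherins differed in both directions. NEFH, the heavy neurofilament, was at 376, 304 and 357 CPM in OVCAR8, against 0.0856, 0.136 and 0.686 CPM in Kuramochi. The adhesion molecule NCAM1 had 1 count in OVCAR8, against 54.9, 43.7 and 43.4 CPM in Kuramochi, and the guidance ligand SLIT2 averaged 1.84 ± 0.354 CPM in OVCAR8 and 159 ± 51 CPM in Kuramochi (SD, n = 3 each). Of 40 genes of this list 16 were higher and 16 lower. Clustered protocadherins share their last exons, so members of a cluster had near-equal counts and cannot be read 1 by 1. As blocks, PCDHA genes were higher in OVCAR8 (PCDHAC2 at 22.5, 20.6 and 21.2 CPM in OVCAR8, against 0.656, 0.325 and 0.289 CPM in Kuramochi) and PCDHG genes lower (PCDHGC3 at 25.6, 28 and 26.4 CPM in OVCAR8, against 138, 159.5 and 178 CPM in Kuramochi).

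Some genes were read in 1 line only. Among 14949 protein-coding genes tested, 51 had 0 counts in the 3 OVCAR8 libraries and at least 10 CPM in Kuramochi, and 26 had 0 counts in Kuramochi and at least 10 CPM in OVCAR8. With a limit of 3 counts these numbers were 106 and 63, while 8499 genes were at 10 CPM or more in both. A count of 0 over a group allows up to 3 counts, or 0.0296 CPM in OVCAR8 and 0.0301 CPM in Kuramochi, by counting error alone. GLUL, glutamine synthetase, had the largest limit among genes absent from OVCAR8, with 219.7, 271 and 294 CPM in Kuramochi, at least 8760-fold lower in OVCAR8. The selenium-binding protein SELENBP1, the retinol transporter STRA6, the sodium pump regulator FXYD6 and the sorting receptor SORL1 were at least 7220, 3580, 3900 and 3310-fold lower. PDCD10, a scaffold of the STRIPAK kinase complex, GOLIM4 and SERPINI1 lie near MECOM on chromosome 3 and had 0, 2 and 0 counts in OVCAR8, against means of 49.2, 91.9 and 2.65 CPM in Kuramochi. On the OVCAR8 side, EPB41L3, a membrane cytoskeleton protein, was at 174, 172 and 175 CPM and had 0 counts in Kuramochi, at least 5770-fold higher. The GDNF receptor GFRA1 and the Rac activator DOCK5 were at least 4860-fold and 3140-fold higher, the acyltransferase ZDHHC2 at least 1330-fold, and ANXA8L1, which shares reads with ANXA8, at least 1070-fold.

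Promoters of the switched genes held fewer CpG sites than those of genes on in both lines. In the 250 bases before the start, 41 of 78 genes with a RefSeq window that had at most 3 counts in OVCAR8 and 10 CPM or more in Kuramochi (52.6%) reached an observed to expected CpG ratio of 0.6, a usual mark of CpG islands. In the reverse set 22 of 41 (53.7%) did, against 87.0% of 6988 genes at 10 CPM or more in both lines and 77.1% of 11756 tested protein-coding genes. The median number of CpG sites was 15 in both switched sets, against 22 in genes on in both. Some of the genes with a large contrast had more CpG sites than the median of the switched sets. GLUL had 25, TIMP3 26, DKK1 18 and EPB41L3 25, with ratios of 0.747, 0.802, 0.733 and 0.949. The median ratio of genes on in both lines was 0.853, which only EPB41L3 exceeded. The 170 bases before the start are shown 5′ to 3′ with CG in capitals for GLUL (minus strand, chr1:182391791-182391960) and TIMP3 (plus strand, chr22:32801535-32801704), silent in OVCAR8, and for DKK1 (plus strand, chr10:52314111-52314280) and EPB41L3 (minus strand, chr18:5628992-5629161), silent in Kuramochi. RNA counts do not measure DNA methylation, which was not analysed here.
GLUL: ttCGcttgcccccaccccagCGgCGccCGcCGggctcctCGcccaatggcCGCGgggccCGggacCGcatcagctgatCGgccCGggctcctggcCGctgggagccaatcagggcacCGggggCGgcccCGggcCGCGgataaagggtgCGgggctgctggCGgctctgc
TIMP3: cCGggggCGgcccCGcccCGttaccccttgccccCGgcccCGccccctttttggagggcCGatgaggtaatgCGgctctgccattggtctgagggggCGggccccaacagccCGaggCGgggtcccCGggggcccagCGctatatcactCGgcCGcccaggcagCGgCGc
DKK1: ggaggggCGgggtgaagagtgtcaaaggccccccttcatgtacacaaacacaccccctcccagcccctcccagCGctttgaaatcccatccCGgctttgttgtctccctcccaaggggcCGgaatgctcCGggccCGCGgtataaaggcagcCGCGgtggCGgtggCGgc
EPB41L3: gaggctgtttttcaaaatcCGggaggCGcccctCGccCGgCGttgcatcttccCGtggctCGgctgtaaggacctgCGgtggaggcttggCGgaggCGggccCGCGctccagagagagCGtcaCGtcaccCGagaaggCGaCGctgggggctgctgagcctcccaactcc

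The difference was uneven along the genome. Chromosome 18 had the highest median log2 fold change, 0.96 over 297 genes, of which 142 (47.8%) were at least 2-fold higher in OVCAR8 and 44 lower. Chromosomes 10 (0.44), 12 (0.34) and 5 (0.30) followed. Chromosome 1 had the lowest, -0.65 over 2050 genes with 243 higher and 752 lower, and then chromosomes 7 (-0.54), 21 (-0.47) and 20 (-0.42). In runs of 50 neighboring genes at 10 CPM or more in a line, protocadherins aside, the lowest median was -1.86 on chromosome 7 (107580246 to 128458418, BCAP29 to HILPDA), where 36 of 50 genes were at least 2-fold lower. The highest were 1.81 on chromosome X (101882288 to 111270483, ZMAT1 to CAPN6) and 1.66 on chromosome 8 (406428 to 19396218, FBXO25 to SH2D4A), where 40 of 50 genes were at least 2-fold higher in OVCAR8. RNA counts do not measure DNA copy number, and neighbors on a chromosome are not independent.

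Runs of 10 neighbors, chosen after their values were seen, were read as well. The 10 genes on chromosome 7 from 124822386 to 128458418 had a median of -2.69, and all 10 were at least 2-fold lower in OVCAR8. The 10 genes on chromosome 8 from 23020133 to 25507911 had a median of 2.19, and all 10 were at least 2-fold higher. BCAT1, the cytosolic branched-chain aminotransferase (chr12:24810024-24949101), had one of the largest differences in CPM. It was at 248, 255 and 260 CPM in OVCAR8, against 4718, 4065 and 4777 CPM in Kuramochi (log2 fold change -4.15, standard error 0.164, adjusted p = 4.01e-09).

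**Figure D5:**
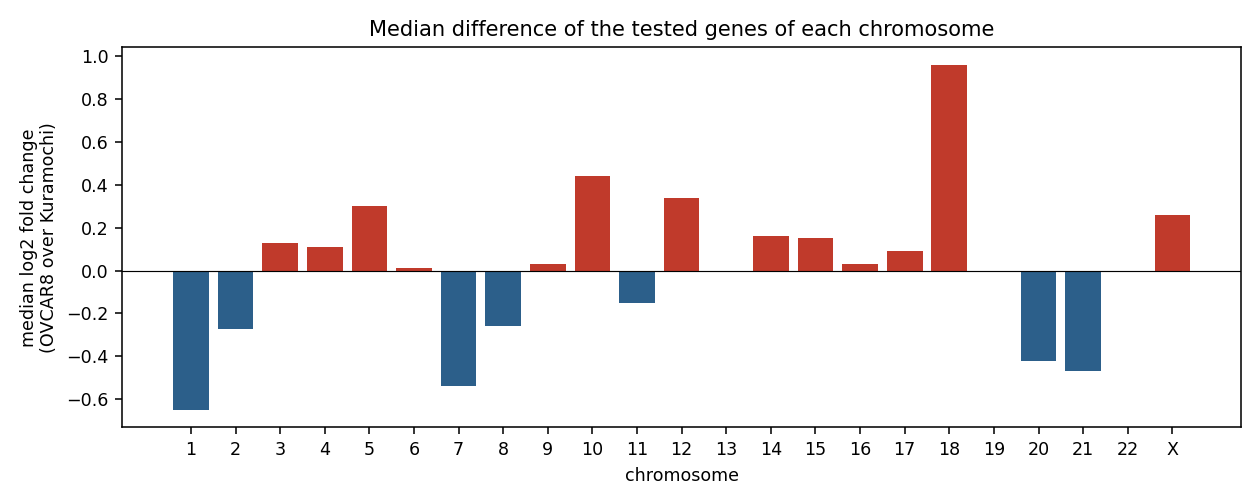
Median log2 fold change (OVCAR8 over Kuramochi, vertical axis) over the tested genes of each chromosome (horizontal axis), 1 bar per chromosome. Chromosome 18 at 0.96 and chromosome 1 at -0.65 are the extremes.

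Markers of other cell types were checked in the plastic libraries, since these should hold cancer cells only. The 13 fibroblast markers summed to 795 to 879 CPM in OVCAR8, against 502 to 590 CPM in Kuramochi, with 6 and 3 of them at 0 counts. COL1A1 made most of the sum in OVCAR8 while COL1A2 was at 0, and THY1 and COL3A1 made most of it in Kuramochi. The 15 mesothelial markers summed to 225 to 243 CPM in OVCAR8 and 290 to 487 CPM in Kuramochi, with 4 at 0 counts in each. The highest members were MSLN, ANXA8 (50.1, 51.2 and 49.7 CPM) and BNC1 (49.3, 42.6 and 48.9 CPM) in OVCAR8, and MSLN in Kuramochi. The 12 leukocyte markers summed to 21.1 to 23.6 CPM in OVCAR8 and 2.57 to 3.57 CPM in Kuramochi, nearly all CD68 in OVCAR8, and the 14 endothelial and adipocyte markers to 44.9 to 53.1 CPM and 12.8 to 20.7 CPM, in OVCAR8 mostly the lipase LPL (50.4, 42 and 50.6 CPM).

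On the 3D omentum culture the lines stayed apart in most of these genes. The contrast of OVCAR8 3D and Kuramochi 3D, in 1 fit of all 18 libraries, called 13991 of the 20651 genes (67.7%). Of the 9217 genes at least 2-fold apart on plastic, 7124 (77.3%) were called at least 2-fold in the same direction on 3D. These are other libraries of the same lines, so the 3D values were not used to choose the genes. EGFR had a log2 fold change of 3.61 on 3D, KRT7 of 5.38, PAX8 of -2.75 and TNC of -6.09, and each passed the test, also without any 1 library. Direction turned for 41 genes, and for 30 of them at 2-fold or more, with 31 to 53 and 22 to 43 when 1 library was left out. OAS2, an oligoadenylate synthetase, was one, with 315, 120.5 and 126 CPM in OVCAR8 3D, against 5.6, 38.3 and 9.52 CPM in Kuramochi 3D (log2 fold change 3.39, standard error 0.755, adjusted p = 9.92e-04), and 3 counts in OVCAR8 plastic, against 3.97, 25.1 and 46.3 CPM in Kuramochi plastic. Fibronectin was at 2402, 3556 and 3304 CPM in OVCAR8 3D, against 10570, 7429 and 7036 CPM in Kuramochi 3D (log2 fold change -1.43, adjusted p = 0.0385), and this reversed call was lost in 10 of 12 fits that left out 1 library, with adjusted p up to 0.113. The fibroblast marker COL1A2, which had 0 counts in OVCAR8 plastic and 3 in Kuramochi plastic, was at 8.33, 599 and 367 CPM in OVCAR8 3D, against 179.9, 38.2 and 275 CPM in Kuramochi 3D, and its part in the 3D differences was not tested.

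The line difference itself changed between cultures, by the interaction test, for 1241 genes (6.01%), of which 646 had a higher and 595 a lower log2 fold change on 3D. This count rested on single libraries. It was 523 without OVCAR8 plastic replicate 62, 580 without OVCAR8 plastic replicate 4, 594 without OVCAR8 3D replicate 61, 604 without OVCAR8 3D replicate 62, 693 without Kuramochi plastic replicate 4, 728 without Kuramochi 3D replicate 8 and 3259 without Kuramochi plastic replicate 2. Of the 54 interferon genes 50 were among them, and 41 to 53 without any 1 library. On 3D the list had 17 members at least 2-fold higher and 4 lower, with a median log2 fold change of 0.42, and the members higher numbered 11 without OVCAR8 3D replicate 4, 12 without Kuramochi 3D replicate 2 or 8 and 25 without Kuramochi 3D replicate 4. ISG15 was at 488, 325 and 343 CPM in OVCAR8 3D, against 208, 246 and 108 CPM in Kuramochi 3D, and IFI6 at 1476, 1042 and 1137 CPM in OVCAR8 3D, against 514, 1078 and 255 CPM in Kuramochi 3D. Neither gene was lower in OVCAR8 on 3D. B2M remained lower there, at 52.5, 110.3 and 88.7 CPM in OVCAR8 3D, against 517, 849 and 719.8 CPM in Kuramochi 3D (log2 fold change -3.05, adjusted p = 2.15e-08). Of the 13 mitochondrial genes 12 were at least 2-fold lower in OVCAR8 3D, with a median log2 fold change of -4.12. MT-CO2 was at 453, 346 and 308 CPM in OVCAR8 3D, against 5287, 5489 and 5294 CPM in Kuramochi 3D (interaction -2.19 on the log2 scale, adjusted p = 3.57e-06).

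Genes with 0 counts on plastic gave reads on 3D in part. Of the 51 genes absent from OVCAR8 plastic, 39 had a count and 28 over 3 counts in OVCAR8 3D, with 161, 4799 and 3778 counts together in replicates 4, 61 and 62. Of the 26 absent from Kuramochi plastic, 18 had a count and 12 over 3 counts in Kuramochi 3D, with 81, 82 and 246 counts together. MMP2, a gene that fibroblasts also express, had 32, 2103 and 1733 counts in OVCAR8 3D, and TIMP3 7, 334 and 221. EMX2 and SLC34A2 had 0 counts in each of the OVCAR8 3D libraries. Reads of the cancer cells and of any omental cells that passed the sort cannot be told apart here.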

How the data were processed

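RNA was measured by sequencing polyadenylated transcripts of 18 libraries, of which 6 make up the comparison of OVCAR8 and Kuramochi on plastic. The authors trimmed reads with Trimmomatic 0.33, aligned them to GRCh38 with TopHat2 2.1.0 and counted them per GENCODE 25 gene with HTSeq, per the submitters' processing notes and the study's methods, and deposited raw counts for each library. The strand setting of HTSeq is not stated in what was read, so overlapping genes are named as uncertain. Symbols and coordinates were taken from GENCODE 44.

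Counts were filtered with filterByExpr (minimum count 10, minimum total 15), which left 20651 genes, and tested in edgeR 4.0.16 by its quasi-likelihood F-test (R 4.3.3, robust, TMM factors 0.9555 to 1.045) in the 9 plastic libraries as 3 groups, with 6 residual degrees of freedom and a common dispersion of 0.0365. A gene was called at an adjusted p under 0.05 and, where stated, a 2-fold difference. The 3D contrast and the interaction came from a fit of all 18 libraries as 6 groups, with p-values adjusted over the genes of that fit and calls counted among the 20651. The script was tested on simulated counts. Intervals and floors cover counting error only, and reads were not counted by molecular identifiers.

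Gene lists and members were chosen with earlier results of these data known. Named genes were the 15 with the largest fold each way among protein-coding genes called at 2-fold without overlap and at 10 CPM or more in the higher line, the key members of each list, from each list the 4 genes each way that had the smallest adjusted p and the 10 with the largest difference in CPM. Further interferon, kallikrein and MHC genes and neighbors of MECOM and NDN were named after their values were seen. Some genes and the regions that hold them are not reported here. Alternatives were DESeq2 1.42.0, RLE size factors, no filter, the 6 libraries alone, all 18, glmTreat against 2-fold, counting OVCAR8 replicates 4 and 62 as 1, and leaving out each library. Leaving out libraries and a replicate block in the 18-library fit were added after seeing the data.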

Additional observations from a re-analysis of the deposited data

Results flagged for a closer look

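The difference between the lines itself differed between the cultures, by the interaction test of edgeR, for 1241 genes, and for 50 of the 54 interferon genes tested. The first count ranged from 523 to 3259 when 1 library was left out, and the second from 41 to 53.

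On the log2 scale, the OVCAR8 over Kuramochi fold change on 3D exceeded that on plastic by 7.34 for IFI6, 7.27 for IFI27, 5.17 for IFITM1, 5.29 for ISG15, 7.83 for MX1 and 12.95 for OAS2. Each of these 6 calls held without any 1 of the 12 libraries of both lines. OVCAR8 3D replicates 61 and 62 were close in some genes, such as FOSL1 at 371, 214 and 218 CPM in replicates 4, 61 and 62. A fit without either of them keeps the other, and whether they are separate cultures was not tested. OAS2 had only 3 counts in OVCAR8 plastic, so its size is uncertain. In these genes OVCAR8 was at higher CPM on 3D than on plastic, for example MX1 at 483, 269 and 264 CPM on 3D and 2.51, 3.14 and 2.69 CPM on plastic, while Kuramochi had 233, 616 and 141 CPM on 3D and 171, 705 and 972 CPM on plastic.

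For fibronectin (FN1) the same difference was -3.73 (adjusted p = 0.017), and the adjusted p was 0.0501 without OVCAR8 3D replicate 62. Reads of omental cells in the 3D libraries were not separated from those of the cancer cells.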

How the results depend on the processing

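With alternative settings the genes called numbered 13713 with RLE size factors, 13284 in the 6 libraries alone, 14902 with all 18, 15619 without a filter and 14691 with DESeq2, and 12494 to 14383 when 1 library was left out, of which 4144 to 4601 were at least 2-fold higher and 4925 to 5225 lower. Against a null of 2-fold, glmTreat of edgeR called 6613 genes. With OVCAR8 replicates 4 and 62 counted as 1, 12719 genes were called. Of 438 named genes called at 2-fold, 411 kept the call under every alternative except glmTreat, which ended 42, and leaving out 1 library ended 22. The fold moved by over 1.5 times without 1 library for 75 named genes, 66 of them with at most 30 counts in the lower line. Of 86 list counts, 77 stayed within 1.5 times under every alternative except glmTreat. Restricting to genes at 10 CPM or more moved 16 of 23 chromosome medians. Chromosome 18 was then at 1.11. Chromosome 4 rose from 0.11 to 0.39, above chromosome 5 at 0.33, and chromosome 19 fell from 0.0 to -0.15. The genes at least 2-fold apart in the same direction on 3D numbered 6903 to 7162 without 1 library. No paired analysis was possible because the OVCAR8 and Kuramochi plastic libraries share only replicate number 4. Between cultures, where each line has the same replicate numbers on 3D and on plastic, a replicate block within each line, added after seeing the data, gave 1518 genes with a called interaction, 1071 of them among the 1241 called without it, and 50 of the 54 interferon genes. The deviations of same-numbered libraries correlated across 16465 genes at 0.18, 0.139 and 0.368 in Kuramochi, each library best with its own number. In OVCAR8 they correlated at 0.139, 0.17 and -0.135, so the numbers were not taken as pairs. There 3D replicate 62 correlated best with plastic replicate 61, at 0.18, and 3D replicate 4 with plastic replicate 62 at 0.107. The source of these correlations was not tested. Depth limits genes with few counts in 1 line, whose folds are bounds or ratios with wide counting intervals.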

Other observations

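Zinc finger genes of chromosome 19, a group chosen after values were seen, were more often higher in OVCAR8. Of 256 tested, 101 (39.5%) were at least 2-fold higher and 20 (7.81%) lower, with a median log2 fold change of 0.61. The 278 zinc finger genes of other chromosomes had 55 higher and 48 lower and a median of 0.01, and the 903 other protein-coding genes of chromosome 19 had 151 higher and 260 lower and a median of -0.17. These genes are similar in sequence, so part of their reads may be shared.

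OVCAR4 on plastic, not part of the comparison, sided with neither line throughout. CDH1 averaged 135 CPM there, VIM 40.7 CPM, KRT7 1889 CPM, PAX8 176 CPM, TNC 102 CPM and ISG15 34.9 CPM. For CDH1 it stood far above both OVCAR8 (1.07 CPM) and Kuramochi (0.359 CPM).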
